A study of Rattus norvegicus with 6 samples.

Results

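CC chemokines are small secreted proteins that share a pair of adjacent cysteines and guide leukocytes through G protein-coupled receptors of the Ccr family. The 9 genes described here, Ccl2, Ccl3, Ccl4, Ccl5, Ccl6, Ccl7, Ccl11, Ccl20 and Ccl21, were chosen by gene family from the 32623 rows of 1 gene expression table, and each matched 1 row. The table held RNA sequencing of rat heart muscle in 6 samples, 3 after sham surgery and 3 after ischemia, produced by ligation of the left anterior descending (LAD) coronary artery. The rats were male and of the WT genotype, and the labels give a time of 30 min for both groups. Strain and age are not given in the labels. The study describes hearts of its ischemia group as exposed to ischemia for 30 min and, for a separate ischemia and reperfusion model, release of the ligature after 30 min. The labels of these samples name ischemia alone. The part of the heart that was sampled is not given in the sources used here. No source states whether each sample came from 1 animal or a pool, so the p-values below measure the spread between these samples.

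In the heart, the CC chemokines that bind Ccr2, among them Ccl2 and Ccl7, are known for drawing monocytes out of the blood and into injured muscle. Ccl3, Ccl4, Ccl5 and Ccl6 act on monocytes, neutrophils and T cells, Ccl11 acts on eosinophils through Ccr3, and Ccl20 acts on Th17 cells, B cells and dendritic cells through Ccr6. Ccl21 differs from these inflammatory ligands because lymphatic endothelium and lymphoid stroma make it constantly, and it calls Ccr7-bearing dendritic cells and T cells into lymph vessels.

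The libraries held between 68529126 and 79591989 counts, so that 3 counts, the smallest level treated as detectable, corresponded to between 0.0377 and 0.0438 CPM (counts scaled by library total). This limit covers counting error only. The samples differed in tissue make-up as well as in group. Summed FPKM (fragments scaled by gene length and library size) of 4 atrial markers was 214.9 in sham replicate 2 and 48340 and 39200 in the other sham samples, against 1279 to 9610 in ischemia. Summed FPKM of 4 lung and airway markers was 410.6 in ischemia replicate 1, almost all of it Scgb1a1, against 15.1 in sham replicate 3 and less than 1 in the other samples. Cardiomyocyte markers were abundant in every library, with sums of 23460 to 31510 FPKM in sham and 8521 to 16310 FPKM in ischemia. All results are of bulk tissue, in which fewer cells of a type and less RNA per cell cannot be told apart.

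Of the 8 CC chemokines tested, 4 rose in ischemia: Ccl20, Ccl2, Ccl3 and Ccl7, with log2 fold changes between 5.26 and 7.56 at an adjusted p under 0.05 (edgeR, quasi-likelihood test). None of the 8 fell by edgeR or DESeq2, and at an unadjusted p under 0.05 in edgeR the counts were 6 higher and 0 lower. Among all 13964 tested genes, 5.18% were higher and 1.53% were lower at the adjusted threshold, and 18.2% were higher and 14.2% were lower at an unadjusted p under 0.05. Every ischemia sample lay above every sham sample for 6 of the 8 genes, the 4 named plus Ccl4 and Ccl6, a pattern that 23.7% of all tested genes showed. The opposite pattern, every ischemia sample below every sham sample, was seen for 0 of the 8 tested genes and for 14.9% of all tested genes. The median log2 fold change of the 8 genes was 4.51, against -0.0015 over all tested genes. These counts are a description, because the filter required a mean of at least 0.5 FPKM over the 6 samples, and Ccl20 met it only through the ischemia samples. Ccl11 had a mean of 0.485 FPKM, just under the filter, and was the 1 gene not tested.

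The 4 calls needed all 3 sham samples and ischemia replicate 3. Without sham replicate 1 the lowest adjusted p of the 4 genes was 0.157, without sham replicate 2 it was 0.0819, without sham replicate 3 it was 0.125 and without ischemia replicate 3 it was 0.110, so that 0 of the 8 genes passed (edgeR), although 6 had an unadjusted p under 0.05 each time. In these 4 fits 0 of all tested genes passed in either direction, so each edgeR call given below for a tested gene was lost as well. Without ischemia replicate 1 the count was 6, with Ccl4 and Ccl6 added, and without ischemia replicate 2 it was 4. DESeq2 on the same counts called 6 genes higher, the same 4 plus Ccl4 (adjusted p = 0.00353) and Ccl6 (adjusted p = 0.000143).

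**Figure D1:**
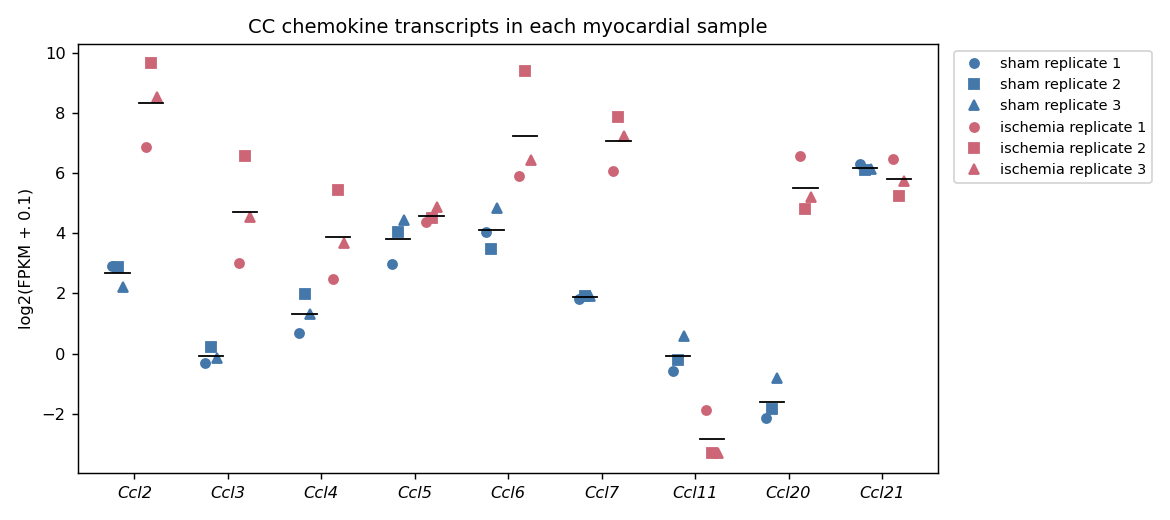
Level of each CC chemokine in each sample, as log2(FPKM + 0.1) on the vertical axis. Blue symbols are the 3 sham samples, red symbols the 3 ischemia samples, the symbol shape gives the replicate number, and the horizontal lines are the group means on the log2 scale. The red symbols lie above all blue symbols for Ccl2, Ccl3, Ccl4, Ccl6, Ccl7 and Ccl20 and below them for Ccl11. For Ccl5 the groups overlap, and for Ccl21 1 red symbol lies above and 2 lie below all blue symbols.

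Ccl2 and Ccl7, the ligands of Ccr2, were the pair whose profiles lay closest together. Ccl2 (ENSRNOG00000007159, 10:69412017-69413870, plus strand, positions as the table lists them, with the genome build not given in the sources used here) measured 7.43, 7.32 and 4.54 FPKM in the sham samples and 116, 806 and 371 FPKM in ischemia replicates 1 to 3. The lowest ischemia sample was thus far above the highest sham sample, while the ischemia samples differed among themselves by 6.95-fold. The means were 6.43 ± 1.64 FPKM in sham and 431 ± 349 FPKM in ischemia (SD, n = 3 each), a log2 fold change of 5.92 ± 0.79 (SE, adjusted p = 0.0277, edgeR). Over the 6 omissions of 1 sample its log2 fold change ranged from 5.19 (without ischemia replicate 2) to 6.35, and the call ended without any 1 sham sample and without ischemia replicate 3 (adjusted p from 0.0820 to 0.157).

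Ccl7 (ENSRNOG00000000239, 10:69423086-69424979, plus strand) lies next to Ccl2 and encodes a second monocyte attractant. Its sham values of 3.40, 3.72 and 3.68 FPKM were the tightest of the 9 genes, and ischemia samples had 67.6, 232 and 151.5 FPKM. As for Ccl2, ischemia replicate 2 was highest and ischemia replicate 1 lowest, and the groups did not overlap. The means were 3.60 ± 0.175 and 150.3 ± 82.1 FPKM (SD, n = 3 each), a log2 fold change of 5.26 ± 0.49 (SE, adjusted p = 0.0246, edgeR). Without 1 sample the log2 fold change ranged from 4.88 to 5.60, and the adjusted p was 0.157, 0.0819 and 0.125 without sham replicates 1, 2 and 3 and 0.110 without ischemia replicate 3. The ratio of Ccl2 to Ccl7 FPKM was 2.19, 1.97 and 1.23 in the sham samples and 1.72, 3.48 and 2.45 in the ischemia samples, so that both genes kept levels of the same order in each sample and the ratios of the groups overlapped.

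Ccl3 (ENSRNOG00000011205, 10:70869513-70871066, minus strand), also known as macrophage inflammatory protein 1 alpha and a ligand of Ccr1, was barely expressed in sham myocardium. It measured 0.708, 1.07 and 0.811 FPKM in sham and 7.90, 94.5 and 23.5 FPKM in ischemia. All ischemia samples were higher than all sham samples, but ischemia replicate 2 exceeded ischemia replicate 1 by 12.0-fold, the widest ratio among the 8 tested CC chemokines. Means were 0.862 ± 0.185 and 42.0 ± 46.2 FPKM (SD, n = 3 each), a log2 fold change of 5.41 ± 0.98 (SE, adjusted p = 0.0377, edgeR). It was 4.11 without ischemia replicate 2 (adjusted p = 0.0351), and the call was lost without any 1 sham sample or without ischemia replicate 3, with adjusted p from 0.0879 to 0.161. An antisense row, AC114233, overlaps Ccl3 on the other strand and held between 6.65% and 24.4% as many counts as Ccl3. The libraries came from a stranded kit, but the strand setting of the counting is not given in the sources used here, so the assignment of reads between these rows is uncertain.

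Ccl4 (ENSRNOG00000011406, 10:70884531-70886355, plus strand), macrophage inflammatory protein 1 beta, had the same order of samples with a smaller difference. Sham samples had 1.503, 3.84 and 2.39 FPKM and ischemia samples 5.51, 43.3 and 12.8 FPKM. The groups did not overlap, yet the lowest ischemia sample was close to the highest sham sample. The means were 2.58 ± 1.18 and 20.5 ± 20.1 FPKM (SD, n = 3 each), and the log2 fold change of 2.79 ± 0.82 (SE) did not pass (adjusted p = 0.0829, edgeR). It passed without ischemia replicate 1 (log2 fold change 3.22, adjusted p = 0.0331), and without ischemia replicate 2 it was 1.73 (adjusted p = 0.160). Although Ccl3 and Ccl4 are neighbours, their ratio was not the same in both groups: Ccl3 stood at 0.471, 0.278 and 0.340 of the Ccl4 level per length in sham and at 1.43, 2.18 and 1.84 of it in ischemia. Ccl3 was thus the lower of the pair in every sham sample and the higher in every ischemia sample.

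Ccl5 (ENSRNOG00000010906, 10:70739800-70744315, minus strand), also called RANTES, is a ligand of Ccr1 and Ccr3 that T cells and platelets are known to release. It had 7.88, 16.3 and 21.7 FPKM in sham and 20.6, 22.9 and 29.4 FPKM in ischemia. Sham replicate 3 lay above ischemia replicate 1, so the groups overlapped, and the ischemia samples were close together. Means were 15.3 ± 6.95 and 24.3 ± 4.52 FPKM (SD, n = 3 each), with a log2 fold change of 0.58 ± 0.42 (SE), an adjusted p of 0.362 in edgeR and a two-sided exact permutation p of 0.2 on the FPKM values. The smallest p that 3 samples against 3 allow in that permutation test is 0.1, the value that Ccl2, Ccl3, Ccl4, Ccl6, Ccl7, Ccl11 and Ccl20 had.

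Ccl6 (ENSRNOG00000030021, 10:70797124-70802782, minus strand), a rodent chemokine of macrophages and granulocytes that binds Ccr1, had the second highest mean of the 9 genes in both groups, although Ccl7 was above it in ischemia replicates 1 and 3. It measured 16.3, 11.0 and 28.6 FPKM in sham and 59.6, 671 and 86.7 FPKM in ischemia. All ischemia samples were higher, but ischemia replicate 2 alone set most of the ischemia mean. Means were 18.6 ± 9.04 and 272.3 ± 345.2 FPKM (SD, n = 3 each), and the log2 fold change of 3.75 ± 0.99 (SE) had an adjusted p of 0.0669 in edgeR and did not pass. Without ischemia replicate 2 the log2 fold change was 1.98 (adjusted p = 0.0515), and without ischemia replicate 1 it was 4.196 and passed (adjusted p = 0.0299).

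Ccl20 (ENSRNOG00000015992, 9:88918433-88921001, plus strand), the ligand of Ccr6 best known from mucosal epithelium, showed the widest difference between the groups. It had 8, 12 and 28 counts in the sham samples, or 0.125, 0.181 and 0.473 FPKM, and 6162, 1636 and 2050 counts in ischemia, or 95.0, 27.7 and 36.7 FPKM. Sham levels were therefore above the limit of 3 counts but low, and the lowest ischemia sample was well above all of them. Means were 0.260 ± 0.187 and 53.1 ± 36.5 FPKM (SD, n = 3 each), the log2 fold change was 7.56 ± 0.81 (SE) and the adjusted p was 0.0248 in edgeR. Unlike the other induced genes, Ccl20 was highest in ischemia replicate 1, where it reached 366-fold the sham mean, against 107-fold and 141-fold in ischemia replicates 2 and 3. Ischemia replicate 1 also held the most lung and airway transcripts, with Sftpc at 6.68 FPKM. Scgb1a1 measured 394 FPKM there, against 0 and 0.187 FPKM in ischemia replicates 2 and 3. Within sham, Scgb1a1 was highest in replicate 3, at 15.1 FPKM against 0.233 and 0.227 FPKM, and Ccl20 was highest there too. Without ischemia replicate 1 the log2 fold change of Ccl20 was 6.82 and still passed (adjusted p = 0.0123), at a sum of lung and airway markers of 0.0550 and 0.285 FPKM in the remaining ischemia samples. The part of lung and airway tissue in the level of Ccl20 was not tested. Without sham replicate 3 its log2 fold change was 8.20. Omitting sham replicate 1, 2 or 3 or ischemia replicate 3 ended the call, at adjusted p of 0.157, 0.0819, 0.125 and 0.110.

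Ccl11 (ENSRNOG00000007335, 10:69434941-69439575, plus strand), or eotaxin, the eosinophil attractant made by fibroblasts and smooth muscle, was the 1 gene with lower values in every ischemia sample. It had 44, 63 and 104 counts in sham, or 0.567, 0.765 and 1.41 FPKM, and 15, 0 and 0 counts in ischemia, or 0.171, 0 and 0 FPKM. Sham samples were low but above the limit of detection, and in ischemia it was detected in replicate 1 alone. Means were 0.914 ± 0.440 and 0.0570 ± 0.0987 FPKM (SD, n = 3 each). In the edgeR fit without a filter on low values, its log2 fold change of -3.92 ± 1.61 (SE) had an unadjusted p of 0.0455 and an adjusted p of 0.196, so the lower level did not pass. Its neighbour on the chromosome, Ccl7, rose in the same samples. Fibroblast markers summed to 688.1, 343.8 and 1149 FPKM in sham and 438.6, 222.8 and 179.2 FPKM in ischemia, with none of the 5 past the threshold (lowest adjusted p 0.0510, for Lum, edgeR), and their part in the level of Ccl11 was not tested. Of the 4 eosinophil markers, Epx, Prg2 and Il5ra were at or below 0.0917 FPKM in every sample, and Siglec5 was at 1.04, 0.584 and 1.10 FPKM in sham and 0.570, 1.26 and 1.12 FPKM in ischemia.

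Ccl21 (ENSRNOG00000034290, 5:58197680-58198782, minus strand), the Ccr7 ligand of lymphatic vessels, was the most abundant of the 9 genes in sham myocardium and did not pass a test of change. It measured 79.4, 68.4 and 70.9 FPKM in sham and 88.8, 37.6 and 53.5 FPKM in ischemia. Ischemia replicate 1 was above all sham samples and the other ischemia samples below them, so the groups overlapped. Means were 72.9 ± 5.76 and 60.0 ± 26.2 FPKM (SD, n = 3 each), with a log2 fold change of -0.36 ± 0.34 (SE), an adjusted p of 0.489 in edgeR and a two-sided exact permutation p of 0.5. Lymphatic markers did not move as 1 group: Prox1 had 4.38, 2.99 and 2.73 FPKM in sham and 1.85, 0.758 and 1.04 FPKM in ischemia (adjusted p = 0.0656, edgeR), whereas Pdpn, which other cells also express, rose with a log2 fold change of 2.31 (adjusted p = 0.0430, edgeR). The lymphatic markers Flt4, Lyve1 and Mmrn1 had log2 fold changes of 0.83, 0.07 and -0.15 and did not pass (edgeR). Which cells carried the transcripts of these markers, Prox1 among them, was not tested. Rodent genomes can carry near-identical Ccl21 copies, so reads of such copies could have been split or lost in counting.

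**Figure D2:**
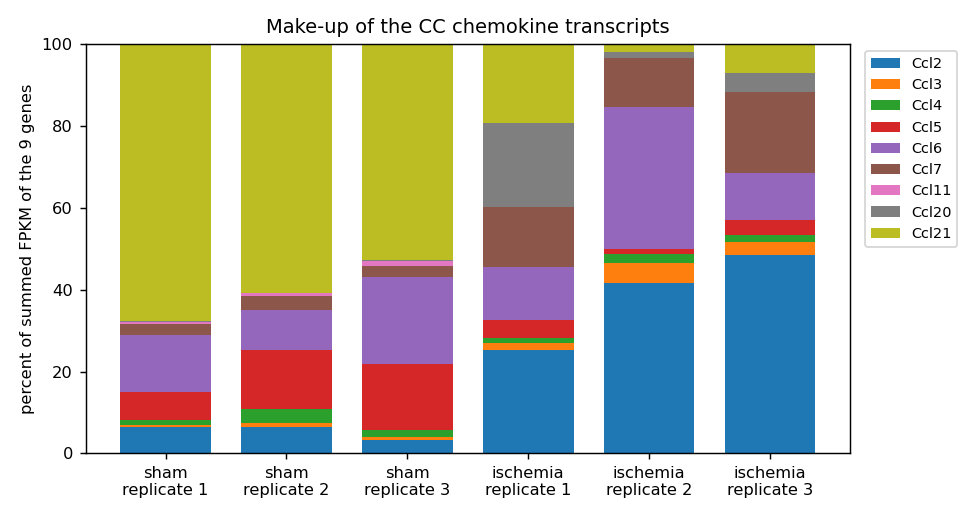
Share of each CC chemokine in the summed FPKM of the 9 genes, in percent, for each sample, with 1 stacked bar a sample and 1 colour a gene. Ccl21 fills 52.7% to 67.7% of the sham bars and 1.94% to 19.3% of the ischemia bars, where Ccl2 takes 25.2% to 48.5%.

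The make-up of the CC chemokine transcripts differed between the groups as well as their amount. Summed over the 9 genes, the level was 117, 113 and 134 FPKM in sham and 461, 1934 and 765 FPKM in ischemia. Ccl21 made up 67.7%, 60.7% and 52.7% of that sum in sham but 19.3%, 1.94% and 6.99% in ischemia. Ccl2 went from 6.33%, 6.50% and 3.38% of the sum to 25.2%, 41.7% and 48.5%, and was the most abundant of the 9 genes in each ischemia sample. The remainder differed from sample to sample, with Ccl6 at 34.7% in ischemia replicate 2 and Ccl20 at 20.6% in ischemia replicate 1. Ranked by mean FPKM, the sham order was Ccl21, Ccl6, Ccl5, Ccl2, Ccl7, Ccl4, Ccl11, Ccl3 and Ccl20, and in 3 of the 8 neighbouring pairs (Ccl6 and Ccl5, Ccl7 and Ccl4, Ccl11 and Ccl3) the sample ranges overlapped. In ischemia the order was Ccl2, Ccl6, Ccl7, Ccl21, Ccl20, Ccl3, Ccl5, Ccl4 and Ccl11, and the ranges of all neighbours overlapped except those of Ccl4 and Ccl11.

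The 9 genes lie at 4 places in the genome. Ccl2, Ccl7 and Ccl11 share a stretch of 27.6 kb on chromosome 10 with no other row of the table between them, and 2 of the 3 genes rose while Ccl11 had lower values. Ccl5, Ccl6, Ccl3 and Ccl4 share 146.6 kb of the same chromosome, where Ccl3 rose and the other three did not pass. Of the 3 further rows in that stretch, Ccl9 rose and both rows named AC114233 did not pass, the more abundant of them with a mean of 21.2 FPKM, a log2 fold change of 3.56 and an adjusted p of 0.0510 (edgeR). Ccl20 is the 1 member on chromosome 9 and Ccl21 the 1 member on chromosome 5, where Ccl19 (5:58181026-58183017) and Ccl27 (5:58159066-58163584), described below, lie close to it. Of these neighbours of Ccl21, Ccl27 rose and Ccl19 did not pass. Neighbours in the genome therefore did not all share a profile.

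Promoter sequence is shown for the 4 genes found in the RefSeq promoter table (build GRCr8), which span the most induced gene, 1 of the Ccr2 ligands, a gene dominated by ischemia replicate 2, and Ccl21, which did not pass a test of change. Ccl2, Ccl3, Ccl4, Ccl5 and Ccl11 were not matched. Each line gives 100 bases before and 50 bases from the start site, in transcript direction, at chr9:91837059-91837208 on the plus strand for Ccl20, chr10:67513995-67514144 on the plus strand for Ccl7, chr10:68883317-68883466 on the minus strand for Ccl6 and chr5:61777466-61777615 on the minus strand for Ccl21. Capitals mark matches to 3 motifs searched on both strands of the 300 bases in the table: the NF-kB consensus in Ccl20, AP-1 (TGANTCA) and then the TATA box (TATAAA) in Ccl7, and the TATA box in Ccl6.
Ccl20: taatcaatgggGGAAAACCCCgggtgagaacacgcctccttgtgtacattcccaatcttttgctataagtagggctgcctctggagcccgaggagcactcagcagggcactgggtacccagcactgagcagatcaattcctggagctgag
Ccl7: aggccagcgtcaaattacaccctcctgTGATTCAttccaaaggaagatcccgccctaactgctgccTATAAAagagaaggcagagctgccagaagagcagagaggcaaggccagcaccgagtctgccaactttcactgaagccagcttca
Ccl6: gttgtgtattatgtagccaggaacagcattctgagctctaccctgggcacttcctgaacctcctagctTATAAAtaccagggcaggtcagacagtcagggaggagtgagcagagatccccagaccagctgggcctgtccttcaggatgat
Ccl21: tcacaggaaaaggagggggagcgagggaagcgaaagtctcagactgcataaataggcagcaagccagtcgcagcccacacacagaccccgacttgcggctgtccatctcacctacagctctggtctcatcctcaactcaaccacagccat
The NF-kB consensus, bound by the main transcription factor of inflammatory signalling, was found at -89 to -80 from the start of Ccl20 and in 4.18% of 33469 rat promoters of the same length. AP-1, the site of Fos and Jun, was searched with any base at its middle position. That pattern was found as TGATTCA at -73 to -67 in Ccl7 and in 7.33% of promoters. The TATA box was found at -34 to -29 in Ccl7, at -32 to -27 in Ccl6 and in 14.2% of promoters. None of the 3 was found in the Ccl21 window. Among 15 CC chemokine promoters in the table, 2 held the NF-kB consensus (Ccl20 and Ccl9), 1 AP-1 and 5 the TATA box. These are matches of letters and no measure of binding.

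Profiles of other genes were compared with each CC chemokine by the root mean square difference of centred log2 CPM over the 6 samples, a description of likeness that shares the group difference. Ccl2 and Ccl7 differed by 0.458, Ccl2 and Ccl3 by 0.552 and Ccl3 and Ccl7 by 0.582, the closest pairs among the 8 tested genes, and Ccl20 and Ccl21 by 4.02, the farthest. The median difference of all genes from Ccl2 was 2.95. Genes closest to Ccl2 were Adamts4 (0.521), Pram1 (0.550) and Fcnb (0.563), and those closest to Ccl3 were Adamts4 (0.349), Clec5a (0.378) and Plaur (0.378). Closest to Ccl7 were Cd300lb (0.353), Hk3 (0.372) and Timp1 (0.408), and closest to Ccl4 were Pfkfb3 (0.251), Rgs16 (0.309) and Itgax (0.331). Ccl6 had Cd53 (0.264), Fcgr2a (0.265) and Jaml (0.300) nearest. Nearest to Ccl20 were the metallothionein Mt2A (0.457), Angptl4 (0.763) and the pentraxin Ptx3 (0.960). Ccl5 had Clstn2 (0.171), Septin1 (0.184) and Impdh1 (0.211) and Ccl21 had Ksr1 (0.0456), Ahdc1 (0.0527) and Crtc1 (0.0732), small values that profiles with little change share easily.

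**Figure D3:**
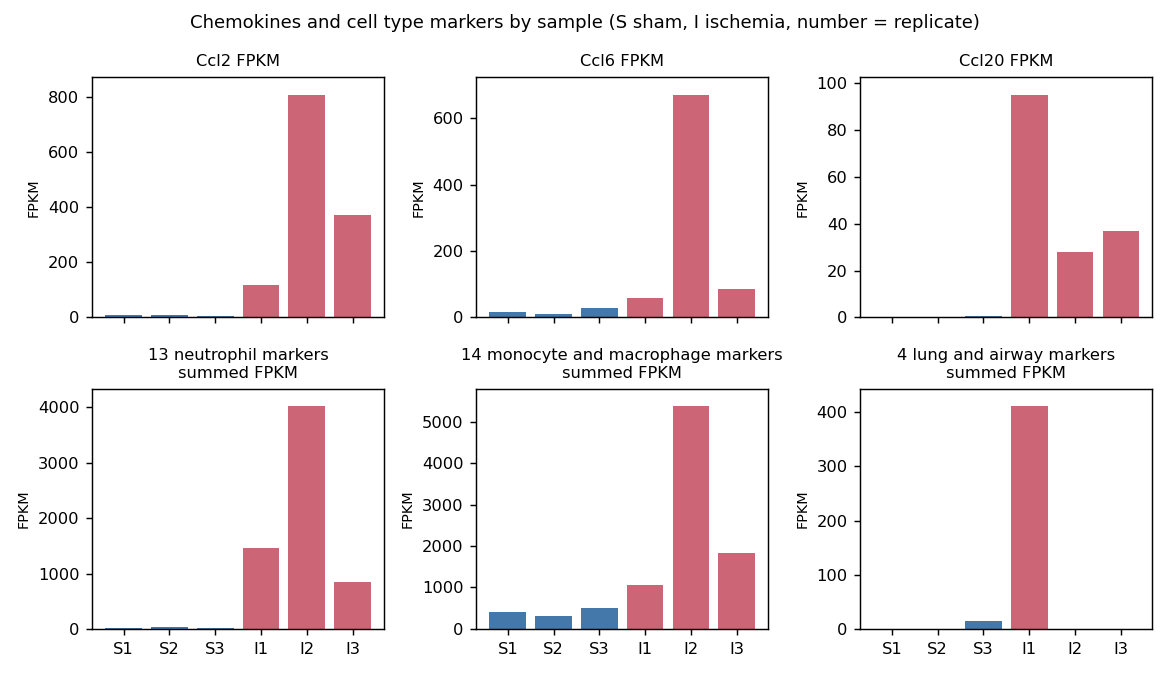
FPKM of Ccl2, Ccl6 and Ccl20 (top) and summed FPKM of neutrophil, monocyte and macrophage, and lung and airway markers (bottom) in the 3 sham (S, blue) and 3 ischemia (I, red) samples, with bars starting at 0. Ccl2, Ccl6 and both leukocyte sums are highest in ischemia replicate 2, while Ccl20 and the lung and airway sum are highest in ischemia replicate 1. Lcn2 makes up most of the neutrophil sum in ischemia replicate 1, and Lyz2 most of the monocyte and macrophage sum in the 3 ischemia samples.

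Neutrophil, monocyte and macrophage markers summed to more in ischemia, where the induced CC chemokines were higher. Counts of markers stand beside the same 5.18% of all tested genes that were higher. The 13 neutrophil markers summed to 14.2, 30.5 and 17.1 FPKM in sham and 1461, 4016 and 839 FPKM in ischemia, and 8 of 12 tested rose (edgeR), while Mpo, a defining enzyme of their granules, had 0, 0.497 and 3.78 FPKM in sham and 0, 0.0170 and 0 FPKM in ischemia. Of the 8, Csf3r, Cxcr2, Mmp8, Il1r2 and Retnlg passed the filter on low values only through the ischemia samples, so the count is a description. Lcn2 alone had 952.1, 137.1 and 337.2 FPKM in ischemia replicates 1 to 3, and so made up most of the neutrophil sum in replicate 1. The 14 monocyte and macrophage markers found in the table summed to 407.5, 308.6 and 493.0 FPKM in sham and 1056, 5370 and 1824 FPKM in ischemia, and 6 of 14 rose, among them Lyz2 (log2 fold change 4.09), Itgam (4.03) and Cd14 (3.29), whereas C1qa, C1qb and C1qc, complement genes of resident macrophages, had log2 fold changes of -0.66, -0.03 and -0.42 and did not pass. Other markers of resident macrophages differed among themselves: Cd163 rose (1.40, adjusted p = 0.0445, edgeR), and Mrc1 (1.25), Lyve1 (0.07) and Folr2 (0.01) did not pass. Lyz2 alone had 746.1, 4747 and 1477 FPKM in ischemia replicates 1 to 3, most of the monocyte and macrophage sum in each. Ischemia replicate 2 was highest for both sums and for Ccl2, Ccl3, Ccl4, Ccl6 and Ccl7. The neutrophil sum, most of it Lcn2 in ischemia replicate 1, was higher there than in replicate 3, unlike those genes. Ccl20 instead was lowest of the ischemia samples in replicate 2. T and NK cell markers were near 25.5 to 36.3 FPKM in sham and 36.5 to 50.6 FPKM in ischemia, with Cd8a and Cd8b higher and Cd4 lower among 11 tested, Cd8b having passed the filter on low values only through the ischemia samples. The part of leukocyte numbers in the level of any CC chemokine was not tested, and production per cell and number of cells cannot be told apart in these libraries.

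Other CC chemokines and receptors were taken from family lists. Of 14 further CC chemokines listed, 11 were in the table and 7 were tested, and 5 rose, against 5.18% of all tested genes. Of the 7, Ccl9, Ccl17 and Ccl22 passed the filter on low values only through the ischemia samples, where they were high, so this count is a description. Ccl24, eotaxin 2, rose although the other eotaxin, Ccl11, had lower values: it measured 5.14, 4.98 and 7.76 FPKM in sham and 48.9, 111.7 and 87.8 FPKM in ischemia, with a log2 fold change of 3.71 ± 0.35 (SE) and an adjusted p of 0.0246 in edgeR. The groups did not overlap for Ccl24. Ccl12, a Ccr2 ligand of rodents, measured 2.08, 2.89 and 3.32 FPKM in sham and 7.96, 70.9 and 53.0 FPKM in ischemia (log2 fold change 3.87, adjusted p = 0.0446, edgeR). The other three that rose were Ccl17 (log2 fold change 4.56, adjusted p = 0.0398), a ligand of Ccr4, Ccl9 (3.78, 0.0361), a ligand of Ccr1, and Ccl27 (2.77, 0.0378), a ligand of Ccr10. Without ischemia replicate 2 the calls of Ccl12 (adjusted p = 0.0734), Ccl17 (0.0642), Ccl9 (0.0550) and Ccl27 (0.0550) were lost, and that of Ccl24 was not. Ccl22, the other Ccr4 ligand, had a log2 fold change of 2.85 and did not pass (adjusted p = 0.0699) but passed in DESeq2 (0.00188). Ccl1 ranged from 0 to 1.46 FPKM, Ccl26 and Ccl28 reached at most 0.119 and 0.0494 FPKM, and none of these was tested. Ccl25 had no counts in any sample.

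Ccl19, the second Ccr7 ligand, had 8.13, 4.51 and 6.83 FPKM in sham and 25.3, 1.85 and 4.02 FPKM in ischemia. Its high value, like those of Ccl20 and Ccl21 within ischemia, fell in ischemia replicate 1. Its log2 fold change was 0.63 (adjusted p = 0.652, edgeR) with all samples and -1.19 (adjusted p = 0.139) without ischemia replicate 1, so no direction was given by these samples.

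**Figure D4:**
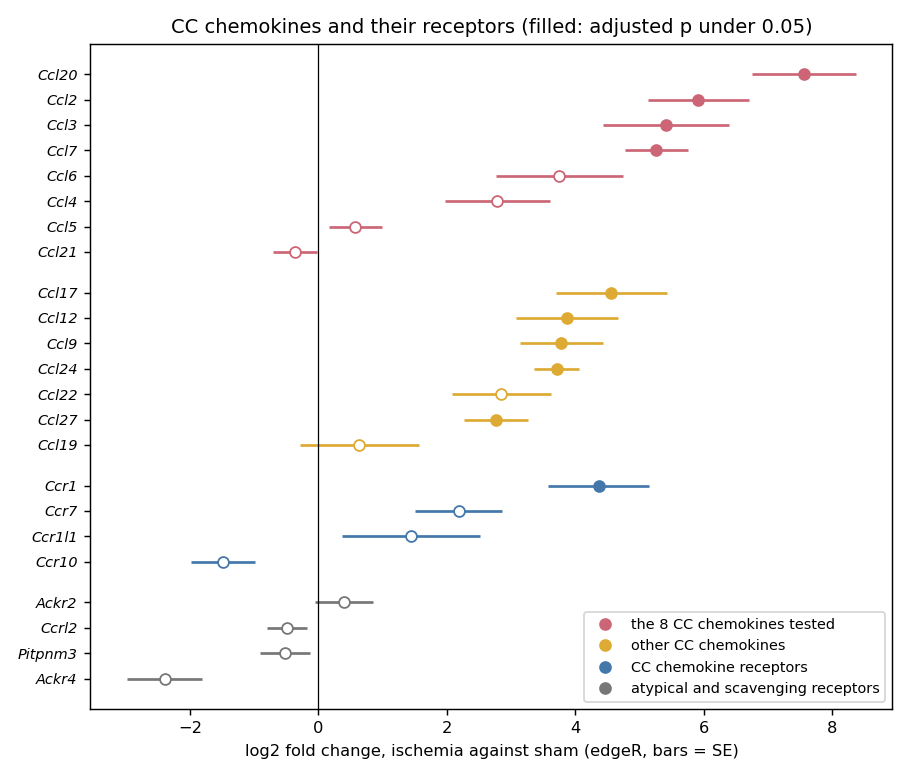
Log2 fold change of ischemia against sham (horizontal axis, edgeR) for the 8 tested CC chemokines described here, other CC chemokines, 4 CC chemokine receptors and atypical or scavenging receptors, with bars of 1 SE to each side. Filled symbols passed an adjusted p under 0.05; Ccl20, Ccl2, Ccl3 and Ccl7 lie farthest to the right, and Ccr1 is the 1 filled receptor among the 4 shown.

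Ccr1, the receptor shared by Ccl3, Ccl5, Ccl6 and Ccl9, was the 1 receptor that rose of the 5 that passed the filter on low values. It had 2.47, 1.32 and 2.56 FPKM in sham and 12.3, 100.6 and 28.1 FPKM in ischemia, with no overlap, a log2 fold change of 4.36 and an adjusted p of 0.0378 in edgeR. Ischemia replicate 2 was highest, as for Ccl3 and Ccl6, and without it the log2 fold change of Ccr1 was 3.26. Ccr7, the receptor of Ccl21, had a log2 fold change of 2.18 (adjusted p = 0.0896), Ccr10 -1.49 (0.105) and Ccr1l1 1.44 (0.376), and none of these passed in edgeR, while DESeq2 called Ccr7 (0.0118) and Ccr10 (0.0294). Without ischemia replicate 2 the log2 fold change of Ccr7 was 1.33. Ccr2, the receptor of Ccl2 and Ccl7, was not analysed here.

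The receptors of the remaining ligands were near the limit of detection. Ccr3, the receptor of Ccl11 and Ccl24, had 0 counts in each sham sample and 93, 61 and 37 counts in ischemia, at least 21.0-fold higher against a floor of 3 counts over the group. It was under the filter on low values, and in the edgeR fit without that filter its adjusted p was 0.0424. That fit was not repeated with a sample left out. Ccr6, the receptor of Ccl20, had 0 counts in sham and 35, 15 and 0 counts in ischemia, so the groups overlapped. Its ischemia mean was 5.32-fold the same floor, and it did not pass without the filter (adjusted p = 0.187, edgeR). Ccr9 had 0 counts in sham and 15, 51 and 23 counts in ischemia, at least 10.1-fold higher. It did not pass without the filter either (adjusted p = 0.0672, edgeR). Ccr4 and Ccr8 stayed at or under 0.288 and 0.480 FPKM. Of the atypical receptors, which take up chemokines without classical signalling, Ackr4, a scavenger of Ccl19, Ccl21 and Ccl25, had 8.78, 2.62 and 6.76 FPKM in sham and 2.02, 0.676 and 0.803 FPKM in ischemia. All ischemia samples were lower, but the log2 fold change of -2.39 did not pass in edgeR (adjusted p = 0.0584) and passed in DESeq2 (0.000574). Ackr2, Ccrl2 and Pitpnm3 had log2 fold changes of 0.40, -0.48 and -0.52 and overlapping groups, and Ackr1 was not analysed here.

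Further steps in the life of these chemokines were read from lists of their regulators, whose counts stand beside 5.18% higher and 1.53% lower among all tested genes. Among 14 genes of NF-kB subunits and inhibitors, 3 rose: Rel (log2 fold change 2.68, adjusted p = 0.0366), Bcl3 (2.40, 0.0272) and Relb (1.16, 0.0351), while Nfkbia, the inhibitor with the highest mean level of the list, had 1.46 and did not pass (0.0675, edgeR, against 0.00516 in DESeq2). Of 10 cytokines that are known to induce CC chemokines, 5 were tested and Osm (5.50, adjusted p = 0.0468) and Il1b (4.52, 0.0397) rose, while Il6 (9.25, 0.0613) did not pass and was at 131 FPKM in ischemia replicate 2 against 1.90 and 2.34 FPKM in the other ischemia samples. Zfp36 (1.69, adjusted p = 0.0422) and Zc3h12a (1.22, 0.0492), which destabilize cytokine and chemokine mRNA, rose among 8 regulators of mRNA decay tested. Without ischemia replicate 2 the log2 fold change was 3.52 for Osm and 3.23 for Il1b. Rel, Osm and Il6 passed the filter on low values only through the ischemia samples. Without ischemia replicate 2 the calls of Zfp36 (adjusted p = 0.0672) and Zc3h12a (0.0704) were lost. All these genes come from the same samples, and no link of any of these genes to a chemokine level was tested.

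Proteases that trim or inactivate CC chemokines divided. Dpp4, a peptidase that clips the first residues of several of them, fell by 2.20 on the log2 scale (SE 0.23, adjusted p = 0.0246, edgeR), from 3.14, 2.63 and 3.04 FPKM in sham to 0.649, 0.621 and 0.745 FPKM in ischemia, with no overlap. Mmp8 (log2 fold change 7.63, adjusted p = 0.0445) and Mmp9 (7.55, 0.0444) rose, and Mmp12 (adjusted p = 0.0488), with no counts in any sham sample, was at least 525-fold higher against a floor of 3 counts over the group. The most abundant of the 8 tested proteases, Ctsd, had a log2 fold change of 0.04 and did not pass (0.902). Of 17 signalling genes downstream of the receptors, 6 rose, against 5.18% of all tested genes, among them the myeloid Src kinase Fgr (4.01, adjusted p = 0.0272), Pik3r5 (2.71, 0.0452) and Vav1 (2.67, 0.0375), whereas Gnai2, the G protein subunit with the highest level, had 0.46 and did not pass (0.194, edgeR). Mmp8, Mmp9 and Mmp12 passed the filter on low values only through the ischemia samples. Leaving out ischemia replicate 2 gave log2 fold changes of 5.03 for Mmp8, 6.26 for Mmp9, 3.37 for Fgr and 1.98 for Pik3r5, and the calls of Mmp9 (adjusted p = 0.0673), Mmp12 (0.0815) and Pik3r5 (0.0505) were lost. Without sham replicate 1 or 2 the log2 fold change of Mmp9 was 6.94 or 9.53.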

How the data were processed

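Raw read counts per gene, whole numbers deposited by the authors for 32623 Ensembl rat genes, were used for all tests. FPKM values deposited by the authors beside the counts were used for levels. The submitters' processing notes name STAR and HTSeq, and versions, genome build and strand setting are not given in the sources used here. Genes without counts carried a small constant in the FPKM columns and were set to 0. Per-sample columns left unused numbered 0. Genes with a mean of at least 0.5 FPKM over the 6 samples were tested with the edgeR (4.0.16, R 4.3.3) quasi-likelihood test after scaling by the trimmed mean of M-values, two-sided and without covariates. P-values were adjusted by the Benjamini-Hochberg method over 13964 genes at a threshold of 0.05, and the standard error was derived from the F statistic. Where a p-value appears in brackets after a log2 fold change, it is that adjusted value. DESeq2 (1.42.0), limma (3.58.1) on log2(FPKM + 0.1) and log2(FPKM + 1), other filters and scalings, a replicate block and the omission of each sample were tried. For single genes, FPKM of the groups was set against all regroupings of the samples (exact permutation test, two-sided). The edgeR script was tested on simulated data.

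The members, lists and tests were chosen with earlier results of these data known. Named were the 9 members, the other CC chemokines and receptors with a count, from each further list its most abundant gene and up to 4 genes past the threshold with the largest change, the most abundant row between members, and the 3 genes with the nearest profile. Il6, Pdpn, Prox1 and the other marker genes given with values were chosen after their values were seen. Same-numbered samples did not deviate together (correlations of -0.05, -0.07 and -0.19), so replicate numbers were not treated as pairs. Values of 2 genes of the lists are not reported here.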

Additional observations from a re-analysis of the deposited data

How the results depend on the processing

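Under 15 alternatives no tested CC chemokine of the 9 changed sign, with log2 fold changes of 5.19 to 6.35 for Ccl2, 3.89 to 5.89 for Ccl3, 1.73 to 3.35 for Ccl4, 0.24 to 0.80 for Ccl5, 1.98 to 4.196 for Ccl6, 4.87 to 5.60 for Ccl7, 5.23 to 8.20 for Ccl20 and -0.77 to -0.09 for Ccl21. The number of these genes called higher was 4 with no filter, with filterByExpr, with other scalings, with robust estimation and with limma, 6 with DESeq2 and 0 with the replicate block (6 at an unadjusted p under 0.05), and 0 to 6 when 1 sample was left out. Among all genes, the number higher was 2071 with DESeq2 and 0 with the replicate block (1826 at an unadjusted p under 0.05), against 723, and 0 to 1490 when 1 sample was left out. The number lower was 93 with no filter, 86 with library totals only, 1742 with DESeq2 and 0 with the replicate block (1523 at an unadjusted p under 0.05), against 214, and 0 to 1115 when 1 sample was left out. The share of calls that were higher was 77.2%, and 54.3% with DESeq2, 57.2% without ischemia replicate 1. Same-numbered samples were not treated as pairs, and whether they shared a batch was not tested. The calls lost with the block therefore remain a limit. Ccl19 reversed to -0.12 and -0.024 with limma at pseudocounts of 0.1 and 1, to -0.26 with the replicate block and ranged from -1.19 to 1.13 when 1 sample was left out. Leaving out 1 sample also reversed Ctsd (-0.091 to 0.14), Ccr1l1 (-0.34 to 2.17) and Ackr2 (-0.13 to 0.68). Zc3h12a, Mmp12, Osm, Pik3r5, Ccl9, Ccl12, Rel and Mmp8 lost their call under at least 1 other filter, scaling or tool, and DESeq2 added Ccl22, Ccr7, Ccr10, Ackr4 and Nfkbia. The cause of these changes was not tested. With 3 samples a group, and 0 calls after most single omissions, an adjusted p near the threshold is no firm call, and levels under 3 counts were not distinguishable from 0.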
